A study of Homo sapiens with 9 samples.

Results

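The AP-1 family of transcription factors was followed here through 8 genes: FOS, FOSB, FOSL1, FOSL2, JUN, JUNB, JUND and ATF3. The members were taken by name, as every probe set that the platform annotation gives to exactly 1 gene, that gene being on the list. This gave 20 probe sets for the 8 genes, out of 54613 probe sets and 19775 genes compared in all. A probe set is a group of short probes on the array that together read 1 stretch of a transcript. Of the 20, FOSL2 had 5, JUN and JUND had 4 each, ATF3 had 3, and FOS, FOSB, FOSL1 and JUNB had 1 each.

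The cells were WA09, an established human embryonic stem cell line for which the labels name no genetic change, and RNA from them was read on 9 Affymetrix arrays. Of these, 3 arrays hold untreated pluripotent cells. Another 3 hold cells damaged by DOX (doxorubicin, which traps topoisomerase II on broken DNA) for 5 h. The last 3 hold cells differentiating for 2 days under 1 µM retinoic acid (RA), in a medium from which FGF was left out, so RA and the loss of that growth factor cannot be told apart. The protocols describe cultures on irradiated mouse feeder cells and feeder-free cultures on Matrigel, without assigning arrays to either. Whether arrays of 1 condition came from separate cultures is not stated, and the p-values therefore measure the spread between arrays, which may be technical.

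AP-1 is a dimer of basic leucine zipper (bZIP) proteins that binds short palindromic DNA elements. FOS proteins cannot pair with themselves and need a JUN partner, whereas JUN proteins can also form dimers of their own kind, and ATF3 pairs with itself or with JUN proteins. Several of these genes are immediate-early genes, switched on within minutes by growth factors through ERK and SRF and by stress through the kinases JNK and p38. ATF3 is also a known stress gene and p53 target, and JUN has been described as a barrier to reprogramming towards pluripotency.

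Values are the deposited log2 intensities, which were background-corrected, normalised between arrays and summarised per probe set. Array medians ran from 4.62 to 4.68. A level below this median probe set was not shown to be above background, so a fold against such a level may be a lower bound. Changes are differences of group means on the log2 scale (n = 3 arrays each) with the standard error from limma, and calls were made at 0.05 after Benjamini-Hochberg adjustment over all 54613 probe sets. Each gene was represented by the brightest of its probe sets, by the mean of all 9 arrays. Arrays of 1 condition correlated at 0.9943 to 0.9969, and the third pluripotent array had the lowest weight that limma gave, 0.578 against up to 1.47. As a check of the labels, response genes were read. Of 6 measured p53 response genes 6 rose after DOX, and of 7 retinoid response genes 6 rose after RA and 0 after DOX. The 6 measured stem cell markers had a mean level of 12.01 to 12.34 on every array. After DOX 1 of these markers, SOX2, was called lower (−0.46, limma adjusted p = 0.0055) and 0 higher. That is 16.7% lower, beside 7.4% of all genes. Of the same 6 p53 response genes 4 also rose after RA, by 0.42 to 0.92, beside 1.88 to 5.45 after DOX. In such bulk RNA, a change in the share of expressing cells and a change in RNA per cell cannot be told apart.

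The comparison of damaged with pluripotent cells asks how the family responds to DOX. All 8 genes rose after 5 h of DOX and none fell, where 4.67% of all genes rose and 7.4% fell. For each of the 8, all 3 DOX arrays lay above all 3 pluripotent arrays, which held for 11.5% of all genes. The rise was at least 2-fold for 7 of the 8, and the median change of the members was 2.82 on the log2 scale against −0.0047 for all genes. By size of change among the 19775 genes, FOS ranked 11 from the top, FOSL1 14, JUN 15, FOSL2 18 and ATF3 26. JUNB ranked 95, JUND 241 and FOSB 402. The pluripotent means of FOS, FOSB and FOSL2 lay below the median probe set, so their changes may be lower bounds and their ranks are only those of the measured values. Of the 20 probe sets 14 rose and 0 fell, against 3.2% higher and 4.52% lower among all probe sets.

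**Figure D1:**
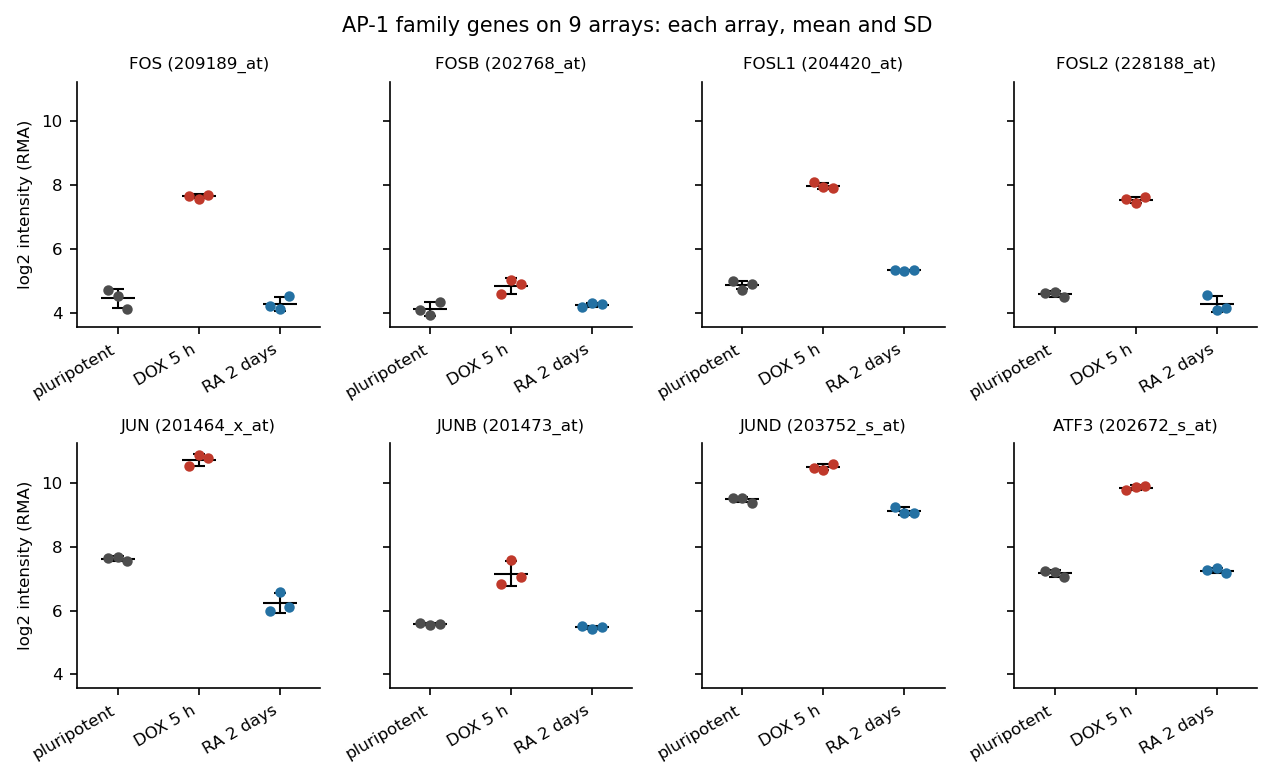
Log2 intensity (RMA, vertical axis) of the representative probe set of each AP-1 gene on each of the 9 arrays (points), with the mean and SD of 3 arrays (black), by condition. The DOX arrays sit above both other conditions in all 8 genes, and the RA arrays of JUN, at 5.98 to 6.58, sit below its pluripotent arrays, at 7.55 to 7.68.

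Sequences around the transcription starts were read for elements through which this family is known to be controlled, including by its own products. RefSeq promoter windows of GRCh38.p14, from 250 bases before to 50 after a start, were at hand for 7 of the 8 genes, with 2 starts for ATF3. They were searched on both strands for TGACTCA, the classical AP-1 element, for TGACGTCA, the cyclic AMP response element that ATF and JUN dimers bind, for TGACG, the shorter core that the full element contains, and for TGACATCA, a variant of both. The 150 bases before the start are shown for 5 of the promoters that hold one of these matches, with the matches in capitals, each read 5′ to 3′ on the strand of the gene. They lie at chr14:75278678-75278827 (plus strand) for FOS, chr19:45467846-45467995 (plus) for FOSB, chr2:28392708-28392857 (plus) for FOSL2, chr1:58784048-58784197 (minus) for JUN and chr1:212565257-212565406 (plus) for the upstream start of ATF3.
FOS: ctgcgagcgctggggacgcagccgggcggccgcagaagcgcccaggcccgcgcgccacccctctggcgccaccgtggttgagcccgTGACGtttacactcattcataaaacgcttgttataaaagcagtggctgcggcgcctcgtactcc
FOSB: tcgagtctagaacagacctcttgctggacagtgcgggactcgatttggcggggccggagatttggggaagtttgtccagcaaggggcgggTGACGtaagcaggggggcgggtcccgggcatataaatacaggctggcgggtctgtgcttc
FOSL2: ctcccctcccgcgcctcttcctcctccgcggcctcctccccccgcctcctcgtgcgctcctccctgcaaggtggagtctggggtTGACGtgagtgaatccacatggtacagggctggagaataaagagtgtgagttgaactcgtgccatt
JUN: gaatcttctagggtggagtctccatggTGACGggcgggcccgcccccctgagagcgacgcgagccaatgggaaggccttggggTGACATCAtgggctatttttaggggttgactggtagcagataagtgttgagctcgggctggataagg
ATF3: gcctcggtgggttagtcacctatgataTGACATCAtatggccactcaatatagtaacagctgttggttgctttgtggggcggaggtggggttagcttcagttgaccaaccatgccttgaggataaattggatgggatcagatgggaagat

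In 4 of these promoters a match begins close to the same distance from the start. It begins 64 bases before it in FOS, 60 in FOSB and 66 in FOSL2, where it is the core TGACG, and 67 in JUN, where it is TGACATCA. The ATF3 promoter carries TGACATCA from base 123 before its start. Further matches of TGACG, on either strand, began 123 bases before the start in JUN and 201 in FOSL2. Of the promoters not printed, JUNB had TGACG from base 137 before its start, and JUND from bases 200, 197 and 86. How often matches lie at such distances in other promoters was not counted. TGACATCA occurred in 2 of the 8 member windows and in 2.61% of all 35116 windows, and TGACG in 6 of 8 and in 24.6%. The full TGACGTCA was found in 1 member window, that of JUND, from base 200 before the start, and in 1.85% of all windows. TGACTCA was found in 1 member window, that of FOSL2, from base 5 after the start, and in 4.95% of all windows. The window of the second ATF3 start, with the 150 bases before it at chr1:212614868-212615017, held none of these elements. Whether a promoter lies at this start was not tested, and its window is 1 of the 8 counted. Other starts of ATF3 were not searched, so nothing follows for them. The CArG box, the element bound by SRF, was found in 0 of the 8 member windows and in 1.29% of all windows. Bases farther upstream than these windows reach were not searched, so this count cannot tell whether FOS or another member has the element there. All matches given here are matches of letters in a short window and do not show binding.

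Among the FOS proteins, which need a partner to bind DNA, the response to DOX spanned a wide range. FOS itself read 4.71, 4.54 and 4.13 on the pluripotent arrays, 7.67, 7.58 and 7.71 after DOX, and 4.20, 4.11 and 4.54 after RA. The DOX arrays were tightly grouped and far above the others, while the pluripotent and RA arrays overlapped near or below the median probe set. The change after DOX was 3.20 ± 0.15 (SE), or 9.17-fold (limma adjusted p = 3.4e-07). Without the third pluripotent array, which read lowest, it was 3.03.

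FOSL1, which encodes FRA-1, a FOS relative that lacks the strong activation domain of FOS, read 5.00, 4.72 and 4.89 in pluripotent cells and 8.09, 7.93 and 7.91 after DOX. After RA it read 5.33, 5.32 and 5.33. The 3 conditions did not overlap at all, with RA between the others. The rise after DOX was 3.11 ± 0.09, or 8.63-fold (limma adjusted p = 8.3e-09).

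FOSL2, which encodes the related FRA-2, read 4.61, 4.66 and 4.49 in pluripotent cells, 7.56, 7.43 and 7.63 after DOX and 4.57, 4.10 and 4.15 after RA on its representative probe set, 228188_at. The change after DOX was 2.95 ± 0.12, or 7.75-fold (limma adjusted p = 1.4e-07). Probe set 225262_at gave nearly the same change, 2.90 ± 0.09. Probe set 218880_at rose by 1.27 ± 0.07 from a pluripotent mean of 3.48. The remaining 2 of its 5 probe sets, 205409_at and 218881_s_at, were at 0.35 (95% interval 0.09 to 0.61) and 0.24 (−0.09 to 0.56) and were not called. Their levels stayed between 3.67 and 5.01 on all arrays, near or below the median probe set. With the mean of all 5 probe sets, the change of FOSL2 was 1.54.

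Among the representative probe sets, that of FOSB had the smallest change. It read 4.10, 3.92 and 4.34 in pluripotent cells, 4.58, 5.04 and 4.90 after DOX and 4.17, 4.29 and 4.28 after RA. The DOX arrays lay above the others by a small margin, with the pluripotent mean (4.12) below and the DOX mean (4.84) above the median probe set. Its rise was 0.72 ± 0.13, or 1.65-fold (limma adjusted p = 0.0064), which may be a lower bound. Where each gene was averaged over its probe sets, JUND (0.41) had a smaller change than FOSB, which has 1 probe set.

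The JUN proteins can bind DNA with a FOS partner or among themselves. JUN, on its representative probe set 201464_x_at, read 7.64, 7.68 and 7.55 in pluripotent cells, 10.53, 10.87 and 10.77 after DOX, and 5.98, 6.58 and 6.12 after RA. The conditions fell into 3 separate ranges, in the order RA, pluripotent, DOX. The rise after DOX was 3.10 ± 0.14, or 8.57-fold (limma adjusted p = 3.4e-07). All 4 JUN probe sets rose. Probe set 201466_s_at rose by 3.91 ± 0.08, or 15.1-fold, from 5.12 on each pluripotent array to 9.02, 8.95 and 9.11. Its 3 pluripotent values were identical (SD 0), which lowers the spread behind its standard error. Probe set 201465_s_at rose by 2.00 ± 0.16, and 213281_at by 0.74 ± 0.15 (limma adjusted p = 0.014), the latter from a pluripotent mean of 4.25. The suffix x marks probe sets whose probes may match other transcripts as well, and s those that read several transcripts alike.

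**Figure D2:**
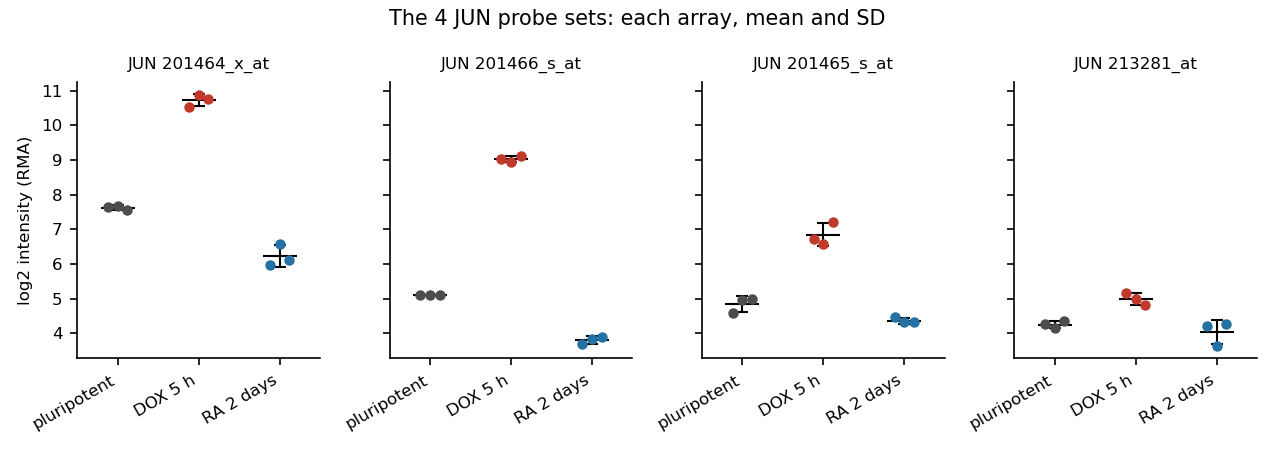
Log2 intensity (RMA, vertical axis) of the 4 JUN probe sets on each array (points), with the mean and SD of 3 arrays (black), by condition. All 4 rise after DOX, and the RA arrays lie below the pluripotent arrays in the first 3 panels but overlap them in 213281_at.

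JUNB, which often acts against JUN at shared target genes, read 5.60, 5.54 and 5.57 in pluripotent cells, 6.84, 7.58 and 7.05 after DOX and 5.51, 5.43 and 5.50 after RA. The DOX arrays were the most spread among the representative probe sets (SD 0.38) and still stood well apart. The rise was 1.59 ± 0.15 (limma adjusted p = 8.4e-05).

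JUND, the member usually present in unstimulated cells, read 9.53, 9.53 and 9.38 in pluripotent cells, 10.48, 10.41 and 10.59 after DOX and 9.26, 9.07 and 9.04 after RA on probe set 203752_s_at. Its rise after DOX was 1.01 ± 0.09, or 2.02-fold (limma adjusted p = 4.3e-05). The other 3 JUND probe sets were not called, at 0.29, 0.19 and 0.14, and their group means stayed between 3.25 and 4.73. The rise of JUND thus rests on 1 of 4 probe sets, and averaging all 4 gave 0.41.

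ATF3, a bZIP factor that represses as a dimer of its own kind, read 7.24, 7.21 and 7.05 in pluripotent cells, 9.78, 9.88 and 9.90 after DOX and 7.26, 7.32 and 7.17 after RA on probe set 202672_s_at. DOX raised it by 2.69 ± 0.08, or 6.45-fold (limma adjusted p = 1.6e-08), and the RA and pluripotent arrays overlapped. Probe set 1554980_a_at rose by 1.44 ± 0.13, from 5.83 to 7.27. The remaining probe set, 1554420_at, was at −0.08 (95% interval −0.41 to 0.24), with all its arrays between 3.63 and 4.22. Without probe sets of the suffixes x, s and a, ATF3 is left with this 1 alone and loses its call.

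**Figure D3:**
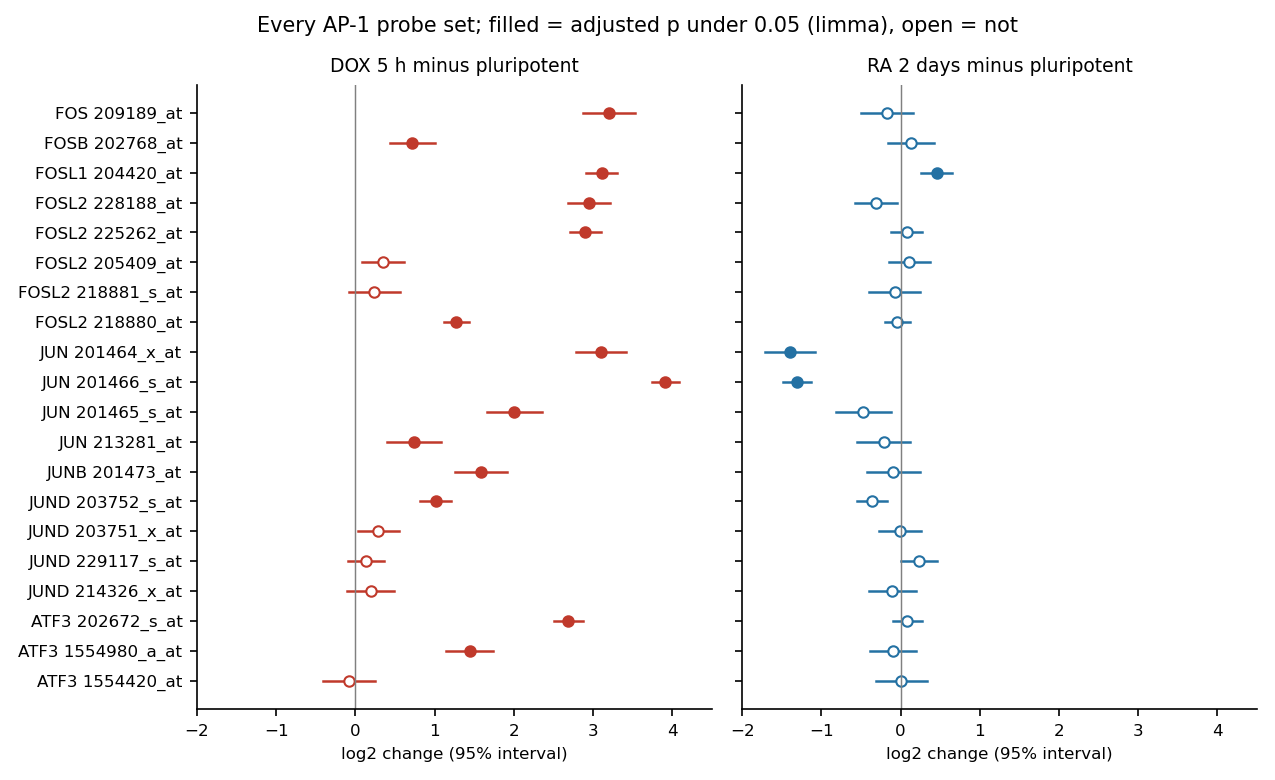
Log2 change (horizontal axis, with 95% interval from limma) of each of the 20 AP-1 probe sets after DOX (left) and after RA (right) against pluripotent cells; filled points were called at an adjusted p under 0.05. After DOX 14 probe sets lie to the right and are filled, and after RA 1 is higher and 2, both of JUN, are lower.

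The comparison of differentiating with pluripotent cells asks whether levels of the family differ after 2 days of RA. Earlier times were not sampled, so a change that had passed by then would not be seen. Of the 6 measured stem cell markers 0 were called higher or lower after RA, with changes between −0.34 and 0.27. Of these markers 4 had an unadjusted limma p under 0.05. Most AP-1 members did not pass the test either. Of the 8 genes 1 rose, 1 fell and 6 were not called, where 2.42% of all genes rose and 2.43% fell. Of the 20 probe sets 1 rose and 2 fell, against 1.47% and 1.48% of all probe sets. The RA and DOX comparisons share their pluripotent arrays, so their values stand here side by side only.

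After RA, JUN fell by 1.40 on the log2 scale (SE 0.14, limma adjusted p = 2.8e-04), to 0.38 of its pluripotent level, and ranked 33 from the bottom of the 19775 genes. Probe set 201466_s_at, from 5.12 to 3.69, 3.83 and 3.90, fell by 1.31 (SE 0.08, limma adjusted p = 5.4e-06). Its RA arrays lay below the median probe set, so that fall may be a lower bound. The other JUN probe sets were at −0.47 (201465_s_at, adjusted p = 0.20 by limma, with no overlap between the groups) and −0.22 (213281_at, adjusted p = 0.68 by limma). The fall of JUN was called with each array left out in turn, at −1.57 to −1.27, and among the other settings was lost where 213281_at stood for the gene.

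FOSL1 rose after RA by 0.46 ± 0.09, or 1.37-fold (limma adjusted p = 0.017). This call was lost without the second pluripotent array (change 0.38, adjusted p = 0.069 by limma) and without any 1 of the RA arrays (adjusted p = 0.058 to 0.067 by limma, change 0.46 in each case). JUND was at −0.36 ± 0.09 and missed the threshold (limma adjusted p = 0.058), although all its RA arrays lay below all pluripotent arrays. It was called lower in 4 of the other settings, at adjusted p = 0.011 to 0.033 by limma. FOSL2 was at −0.31 (95% interval −0.58 to −0.05, adjusted p = 0.28 by limma). The other probe sets of FOSL2 lay between −0.07 and 0.11. FOSL2 was called lower without the first RA array, at −0.46 (adjusted p = 0.039 by limma).

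The remaining 4 genes had intervals that span 0. For FOS the change after RA was −0.17 (95% interval −0.50 to 0.15), for FOSB 0.13 (−0.16 to 0.42), for JUNB −0.09 (−0.42 to 0.24) and for ATF3 0.09 (−0.10 to 0.27). The change that each of these genes showed after DOX lies outside its interval for RA. In JUNB all RA arrays lay below all pluripotent arrays. Its standard error is shared by the 3 conditions, whose SD was 0.03 in pluripotent cells, 0.04 after RA and 0.38 after DOX. With only the 2 compared conditions fitted, JUNB was not called either (limma adjusted p = 0.63).

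Set directly against each other, differentiating cells (2 days of RA) had lower levels than damaged cells (5 h of DOX) for all 8 genes. Of all genes 7.26% were lower and 10.7% higher. Treatment and time differ together in this comparison and cannot be told apart. JUN stood farthest apart, at −4.50 ± 0.14, so it was 22.6-fold higher in the damaged cells (limma adjusted p = 1.4e-08), and only 2 of the 19775 genes had a lower change. FOS was at −3.37 ± 0.15, FOSL2 at −3.27 ± 0.12, FOSL1 at −2.65 ± 0.09 and ATF3 at −2.60 ± 0.08. JUNB followed at −1.68, JUND at −1.37 and FOSB at −0.59. The difference of FOSB lost its call without the second DOX array (−0.49, adjusted p = 0.052 by limma) and without the first RA array (−0.56, adjusted p = 0.053 by limma). Of the 20 probe sets 14 were lower and 0 higher, against 5.13% and 7.11% of all probe sets.

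By these calls the order of conditions differed among members, but no test set 1 member against another. In JUN it was RA, pluripotent, DOX with each step called, and in FOSL1 it was pluripotent, RA, DOX with each step called. The RA call of JUN was lost where 213281_at stood for the gene, and that of FOSL1 in 4 fits without 1 array. In the other 6 genes DOX was above the rest and the pluripotent and RA levels were not told apart by the test. Among these 6, JUND had the order of JUN without overlap on its representative probe set, but its RA change missed the threshold (−0.36, limma adjusted p = 0.058).

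Genes around AP-1 were followed in 6 lists. Textbook AP-1 target genes rose after DOX in 13 of 25 measured cases and fell in 0, where 4.67% of all genes rose, and their median change was 0.50. The other 12 were not called. Of the 25, 8 had a mean below the median probe set in pluripotent cells and 7 after DOX. PLAU, the urokinase that starts plasminogen cleavage, rose by 3.14 ± 0.08, from 7.20 to 10.33. LIF, a cytokine of the interleukin 6 family, rose by 1.79 and SPP1, the matrix protein osteopontin, by 1.56. After RA 2 of the 25 rose and 4 fell, where 2.42% and 2.43% of all genes did, with a median of −0.15. PLAU fell there by 1.02 (SE 0.08, limma adjusted p = 4.4e-05), SPP1 by 0.94 and MMP9, a matrix protease, by 0.80. PLAU, SPP1, MMP9 and TIMP1, all 4 genes that fell after RA, were also called higher after DOX and so had the same order of conditions as JUN.

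Other bZIP factors that pair or compete with AP-1 were read after DOX as well. Of 24 measured genes 5 rose (20.8%, beside 4.67% of all genes) and 3 fell (12.5%, beside 7.4%), with a median of 0.10. MAFF, a small MAF protein without an activation domain, rose by 4.04 ± 0.19 from 5.68 to 9.72, beside 3.20 for FOS, the largest change among the 8 members on their representative probe sets. The next largest changes were those of CREB5 (0.83), a CREB relative, and DDIT3 (0.64), the stress factor CHOP. ATF2, the partner of JUN at the TGACATCA type of element, fell by 0.53 (SE 0.07, limma adjusted p = 0.0010). ATF2 is named here beyond the 3 largest changes of its list, after its value was seen. After RA 2 of the 24 rose (8.33%, beside 2.42% of all genes) and 0 fell, namely JDP2 (0.58), a repressor that dimerises with JUN, and CEBPB (0.55).

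Among the MAP kinases and the kinases that activate them, 3 of 20 measured genes rose after DOX (15%, beside 4.67% of all genes) and 0 fell (beside 7.4%). The changes of all 20 lay between −0.38 and 0.41. The 3 were MAP3K1 (0.41), MAPK13 (0.40) and MAP2K4 (0.26), and after RA 1 fell (5%, beside 2.43%), MAPK7 (−0.41). The dual-specificity phosphatases, which switch MAP kinases off, lay between −0.46 and 2.27 after DOX. Of these 5 of 10 rose (beside 4.67% of all genes) and 1 fell (beside 7.4%), with DUSP5 at 2.27 ± 0.08, DUSP2 at 2.05 and DUSP1, which acts on JNK and p38, at 1.62. After RA 2 rose and 2 fell (20% each, beside 2.42% and 2.43%). DUSP6, which is specific for ERK, fell by 2.27 (SE 0.19, limma adjusted p = 6.2e-05), DUSP9 rose by 1.66 and DUSP4 by 0.69.

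SRF, which drives FOS through its promoter, rose by 0.82 ± 0.09 after DOX (limma adjusted p = 2.7e-04), and of its list of 7 genes 2 rose (beside 4.67% of all genes) and 0 fell. The other was MYOCD (0.52), a cofactor of SRF. After RA 0 of the 7 were called by limma in either direction, 1 had an unadjusted p under 0.05, and their changes lay between −0.25 and 0.27. In a list of 9 genes, of ubiquitin ligases that act on JUN and of adaptors, 1 rose and 1 fell after DOX. In this list 1 gene is 11.1%, beside 4.67% and 7.4% of all genes. These were the adaptor genes TRIB1 (0.64) and TRIB2 (−0.62), while the other 7 genes, the ligase parts themselves, were not called. TRIB2 was also the 1 gene of the list that fell after RA, at −0.97.

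**Figure D4:**
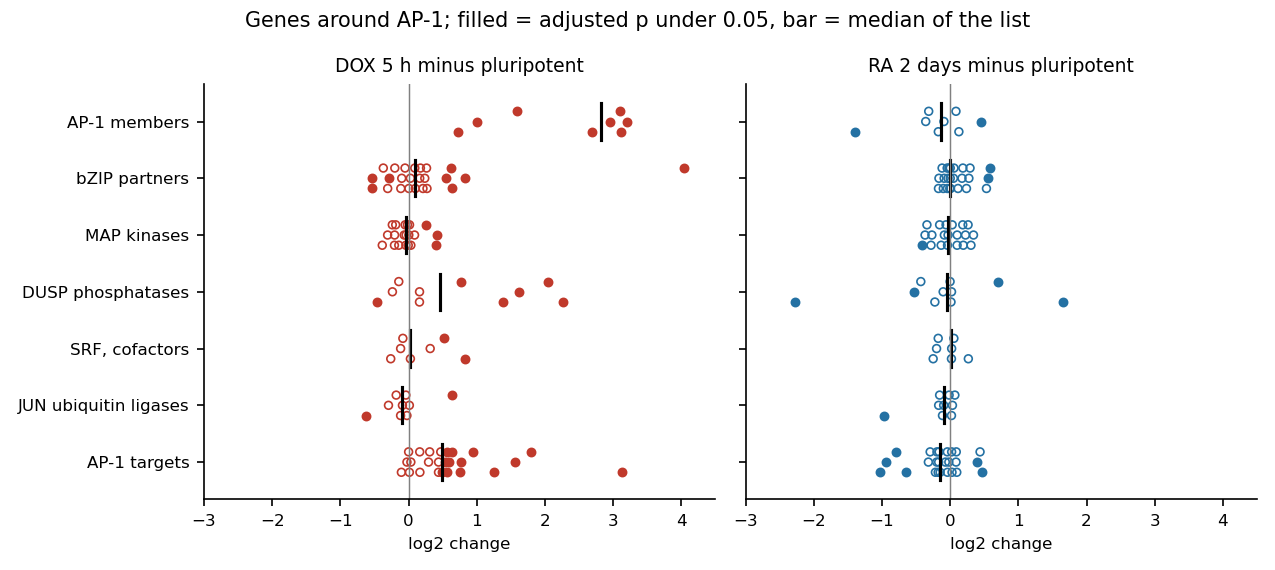
Log2 change (horizontal axis) of the 8 AP-1 genes and of the measured genes of 6 lists after DOX (left) and RA (right) against pluripotent cells; filled points were called at an adjusted p under 0.05 and bars mark medians. The AP-1 genes have a median of 2.82 after DOX, the AP-1 targets 0.50 and the MAP kinases −0.04.

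Genes whose level followed that of a member most closely were sought by Pearson correlation over the 9 arrays, among 1906 genes with an SD of at least 0.3. As the DOX arrays stand apart in all members, these values mainly describe that step. ATF3 was closest to DUSP1 (0.9982), to the death receptor gene FAS and to the kinase gene PLK2 (both 0.9981). FOSL2 was closest to DUSP5 (0.9989), the growth factor gene HBEGF (0.9970) and the small GTPase gene RHOB (0.9955). FOSL1 was closest to the death receptor gene TNFRSF10A (0.9977), GDF15 (0.9961) and SERTAD1 (0.9948). The genes closest to FOS were KITLG (0.9964), DPYSL4 (0.9963) and DUSP14 (0.9953).

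JUN was closest to the actin-associated gene PALLD (0.9968), the zinc transporter gene SLC30A1 and the actin-binding gene NEXN (both 0.9952). All 3 shared its order of conditions. They rose after DOX, by 1.73, 1.70 and 1.18, and fell after RA, by 0.83, 0.69 and 0.49, as these correlations select for. NEXN was also the closest to JUND (0.9930), followed by NUAK1 (0.9916) and ACTC1 (0.9915). JUNB was closest to EGR4 (0.9892), GJB2 (0.9874) and WEE1 (0.9857), and FOSB to PEAR1 (0.9708), CH25H (0.9636) and TNFAIP3 (0.9601).

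Markers of fibroblasts and stromal cells, which a culture could hold beside stem cells, were read on the same arrays. Of 12 measured markers 3 rose after DOX (25%, beside 4.67% of all genes) and 0 fell (beside 7.4%), namely ACTA2 (1.70), TAGLN (1.59) and COL1A1 (1.08). The mean level of the 12 was 6.48 to 6.55 on the pluripotent arrays, 6.95 to 7.01 after DOX and 6.40 to 6.45 after RA. After RA 2 rose (beside 2.42% of all genes), COL1A1 (1.00) and COL3A1 (0.57), and 1 fell (beside 2.43%), TAGLN (−1.76). Of the 12, 4 had a mean below the median probe set in pluripotent cells, 3 after DOX and 3 after RA. LUM, POSTN and FAP were below it in every condition, at means of 3.12 to 3.77. Other markers were bright in pluripotent cells, at means of 10.68 for TAGLN, 10.37 for COL1A1, 9.36 for COL1A2 and 9.27 for THY1. The part of such cells in the AP-1 changes was not tested.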

How the data were processed

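RNA of 9 arrays was compared in 3 conditions, grouped by their labels. The deposited table holds log2 intensities per probe set, made with RMA and affy per the submitters' processing notes. RMA compresses the changes of dim probe sets, and quantile normalization removes shifts that most genes share. The scale was read from the values (2.36 to 14.8). No depth applies, and the number of arrays limits the precision.

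Of 54675 probe sets 62 controls were left out. The annotation gave 1 gene to 41091 probe sets, several to 1801 and none to 11721. Entrez identifiers matched 41037 of them to RefSeq (GRCh38.p14), and 0 symbols changed. A mean per condition was fitted to all probe sets and arrays with limma 3.58.1 in R 4.3.3 (lmFit, eBayes, 6 residual and 4.64 prior degrees of freedom), without a filter on low values. The code was tested on simulated data. The members and lists were chosen with earlier results of these data known. Named genes are all members, up to 3 called genes with the largest change per list and treatment, and the 3 genes most like each member over the 9 arrays. The alternatives were other probe set choices, filters, scalings, spreads, array weights, a replicate block and leaving out each array. List genes without a probe set of their own were not analysed here.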

Additional observations from a re-analysis of the deposited data

How the results depend on the processing

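The count of AP-1 genes called was 8 after DOX, 2 after RA and 8 between the treatments. Over the fits that each left out 1 of the 9 arrays, these counts ranged from 8 to 8, from 1 to 2 and from 7 to 8. Over the 10 other settings they ranged from 7 to 8, from 1 to 3 and from 7 to 8. Without probe sets of the suffixes x, s and a, 1 gene was called after RA, since JUN was then at −0.22. In that setting ATF3 turned to −0.085 after DOX (limma adjusted p = 0.83) and to 0.10 between RA and DOX (limma adjusted p = 0.77), because its 1 remaining probe set is a different one. Among probe sets above the median level FOSB was not tested. Of 453 values of single members under the alternatives, 439 kept their direction and side of the threshold, 7 lost their call, 5 gained one and 2 reversed. With the replicate number as a block the counts were again 8, 2 and 8. The main fit did not use the numbers to pair the arrays. Deviations of same-numbered arrays correlated at −0.103 to 0.199, above 0.1 in 4 of 9 pairs, beside −0.247 to 0.133 for other numbers. Of the 9 arrays 7 correlated best with one of their own number. Whether same-numbered arrays share a batch was not tested. Dim probe sets limit what can be said of FOSB and of the low probe sets of FOSL2, JUND and ATF3.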
